A study of Danio rerio with 12 samples.

Results

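The question addressed here was which transcripts differed late in gastrulation when *ta* and *tbx16*, a pair of T-box transcription factor genes, were knocked down together. It was answered by 6 of the 12 arrays of the series: 3 of embryos at 90% epiboly injected with both morpholino oligonucleotides (MOs), called double morphants, and 3 of embryos of the same stage injected with a standard control MO. They were chosen by stage and injection alone. The other 6 arrays held the same pair of injections at shield, an earlier gastrula stage. The *ta* MO was given at 0.25 pmol and the *tbx16* MO at 0.5 pmol, against 0.75 pmol of the control MO, an equal total dose. All embryos were wild-type zebrafish of the AB strain, of no mutant or transgenic background, and each sample was RNA from a pool of about 200 whole embryos on an array of its own. A gene expressed in few cells of the embryo is therefore diluted by all others, and fewer cells of a type cannot be told apart from less RNA per cell.

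A MO is a synthetic antisense oligonucleotide that blocks the translation or splicing of its target and does not itself cut the RNA. Ta (Brachyury, now *tbxta*) and Tbx16 bind related T-box sites in DNA and are made in the germ ring, the margin where cells internalise to become mesoderm and endoderm. Cells entering the paraxial mesoderm, which will form somites, switch on a set of transcription factors, then the segmentation clock of Hairy-related repressors and Notch ligands, and later muscle genes. At 90% epiboly the margin has almost closed over the yolk and the tailbud is about to form.

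The deposited values were log2 signals of 45220 array features (probes), normalized between arrays, and 26855 of the features had a gene symbol, for 13275 genes. A gene with more than 1 feature was represented by the brightest on average over all arrays, called its standing feature. Differences are given as double morphant minus control on the log2 scale, so that -1 is a halving of the signal, with the standard error of the fit. A feature passed at an adjusted p under 0.05 (limma on all 12 arrays, Benjamini-Hochberg over all features). At this threshold 229 features (0.506%) were lower and 90 (0.199%) were higher in double morphants, and 2555 features had an unadjusted p under 0.05. By gene, 76 (0.573%) were lower and 29 (0.218%) were higher, while the median difference of all genes was 0.01. Of all genes 6378 (48.0%) had a negative and 6897 a positive difference, beside which the sign counts of gene lists below may be set. Whether the pools of a group were from different clutches is not stated, and the p-values therefore rest on the spread among these pools, which may be technical. In simulated data of this design the fit recovered 0 of 50 features changed by 0.5, 19 of 50 changed by 1 and 47 of 50 changed by 2 on the log2 scale. The simulation drew independent noise for each feature and changed 50 features at each of 4 sizes, so its cutoff need not be that of the data. As a rough guide, differences smaller than about 1 were mostly out of reach, although some passed, such as *p4ha2* at -0.74.

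Some features of the 90% epiboly arrays behaved in a way that bears on every large difference. Of the 319 passing features, 72 lay in an opposing pair: another feature 84 or 85 rows away in the value table differed by at least 1 in the other direction, and the double morphant level of the one that was higher lay within 2 of the control level of the one that was lower. This rule was set after the values were seen. At 84 rows 38 passing features had such a partner and at 85 rows 34, whereas at every other distance up to 400 rows there were at most 10 and the median was 1. The pairs held 29 of the 41 features that were higher by more than 2 and 23 of the 69 that were lower by more than 2. A feature of *txnl4a*, a spliceosome gene, read 6.20, 5.57 and 5.71 in controls and 13.94, 14.83 and 14.27 in double morphants. The feature of *pabpc1a*, a poly(A)-binding protein gene, that lay 85 rows away read 14.29, 14.43 and 14.11 in controls and 6.90, 6.46 and 6.23 in double morphants. The remaining 4 features of *pabpc1a* differed by -0.11 to 0.08 and the remaining 2 of *txnl4a* by -0.18 and 0.06. In the same way the only feature of the ligand gene *wnt9b* was higher by 5.25 while 1 of the 3 features of *lypla2* fell by 5.12, and the others of *lypla2* differed by 0.04 and -0.10. Of the 15 genes with features of 1 direction that fell most, *efnb2b*, *zgc:173721*, *pknox1.1*, *pdcd4b* and *dnajc3b* passed on a feature in such a pair, at -4.90, -4.29, -3.57, -2.80 and -2.71, while their other features differed by -1 to -0.01 without passing. The helicase gene *ddx11* passed at -1.93 on 1 of 2 features, the other being at -0.16, and *si:ch211-285f17.1* and *gpr34b* at 4.93 and 3.65, with the other feature of each at -0.10 and -0.21.

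In other genes a single array stood apart within its group. *tiprl* lay in no pair, yet 1 of its 2 features read 8.50, 6.19 and 5.80 in double morphants against 10.10 to 10.33 in controls, and the other differed by -0.20. *rab8a*, in a pair, read 9.61, 6.05 and 5.98 in double morphants, so that sample 1 lay nearer to the controls, and its other features differed by -0.04 to 0.32. At shield, 29 of 219 passing features lay in such pairs. In no such pair, 1 of the 2 features of *tgfbr2b*, a receptor gene for TGF-beta, differed by -8.01 at shield and the other by -0.09. At 90% epiboly they differed by -0.08 and -0.05. What made the pairs, or the change of this *tgfbr2b* feature, was not tested.

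**Figure D1:**
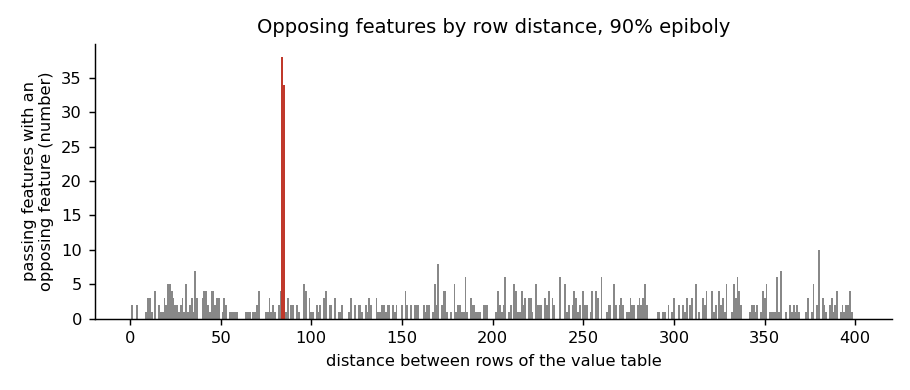
Number of features passing at 90% epiboly (vertical axis) that have an opposing feature at a given distance between rows of the value table (horizontal axis, 1 to 400 rows), with distances of 84 and 85 rows in red. The counts are 38 and 34 at these distances and at most 10 at any other.

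For this reason, weight was given to genes with 2 or more features that all differed in the same direction. Of 8212 genes with 2 or more features, 53 (0.645%) passed as lower and 13 (0.158%) as higher on this condition. In a further 32 lower and 10 higher genes with all features of 1 sign, a feature other than the standing one passed, and these are not counted. In 7 of the 53 and in none of the 13 the passing feature lay in an opposing pair, which left 46 lower and 13 higher genes. The 46 still hold *tiprl*, described above, which passed at -3.42 on 1 of 2 features. The 3 double morphant values lay apart from the 3 control values in all 59, which follows largely from their being picked for passing. The share of all genes without overlap was not counted. In 32 of the 46 and 5 of the 13, at least 2 features passed. A further 18 genes with a single feature were lower and 9 were higher, of which 2 and 4 lay in opposing pairs.

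**Figure D2:**
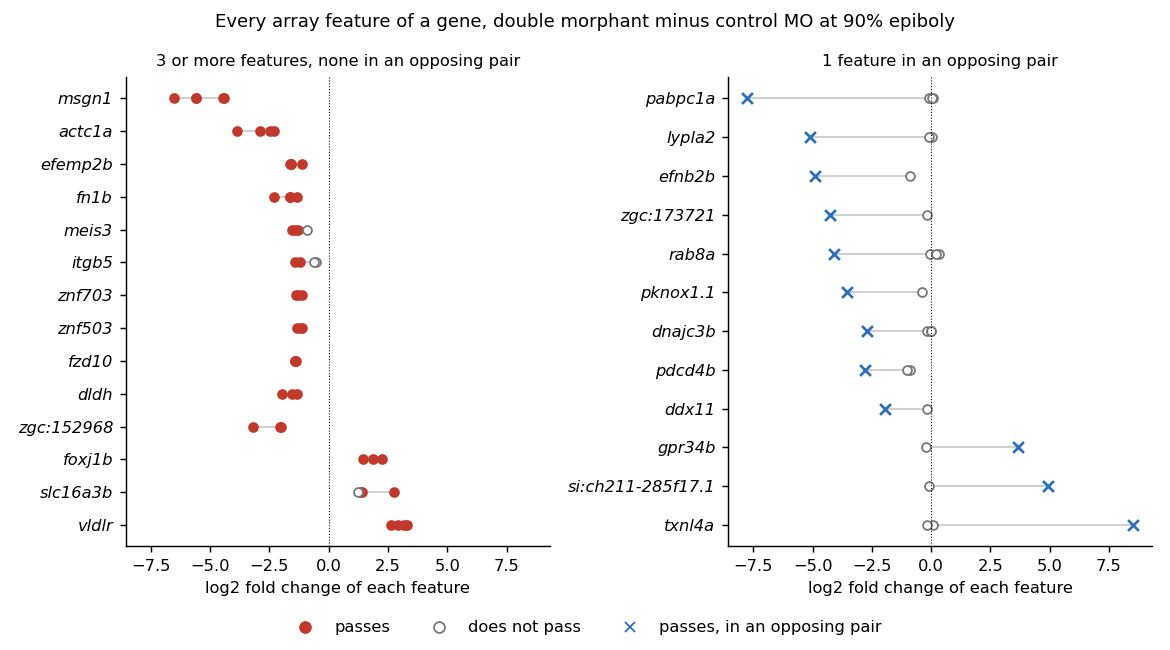
Log2 fold change at 90% epiboly of every array feature (horizontal axis) of chosen genes with 3 or more features outside opposing pairs (left) and of chosen genes with 1 feature in an opposing pair (right). On the left all features of a gene lie on the same side of 0, such as the 5 of *msgn1*. On the right a single feature lies far from the others, as for *pabpc1a*. The genes were chosen for features of 1 direction (left) or for a feature in a pair (right), so this contrast follows largely from the choice.

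The paraxial mesoderm and somite clock genes held more passing members than any other list. All lists were written with earlier results of these data known, so this ranking is a description and no independent support. Of 21 measured members of the paraxial mesoderm list, 10 (47.6%) passed as lower and none as higher, beside 0.573% and 0.218% of all genes. Their median difference was -1.27, and none of the 10 lay in an opposing pair. The transcription factors came first. *msgn1* (mesogenin 1), a basic helix-loop-helix factor of the presomitic mesoderm, read 12.98, 13.08 and 13.21 in controls and 7.50, 7.58 and 7.45 in double morphants. All double morphant values thus lay more than 5 units below every control value, and the gene fell 47.8-fold (log2 fold change -5.58 ± 0.15, adjusted p = 8.85e-11), with all 5 features passing between -6.51 and -4.43. *tbx16l*, a T-box gene of the presomitic mesoderm closely related to *tbx16* (*tbx6* on the array), read 11.79, 11.90 and 12.10 in controls and 8.05, 8.42 and 8.34 in double morphants. It fell 12.6-fold (log2 fold change -3.66 ± 0.20, adjusted p = 1.26e-07), and its other feature passed as well at -2.98. The signal of *mespaa*, whose product positions segment boundaries in the anterior presomitic mesoderm, was 8.42, 8.14 and 8.17 in controls and 5.79, 5.51 and 5.62 in double morphants. The groups lay far apart, with a fall of 6.06-fold (log2 fold change -2.60 ± 0.22, adjusted p = 1.32e-05). *tbx6*, the T-box gene mutated in *fused somites* (*tbx24* on the array), fell by 1.65 on the feature that stands for it (log2 fold change -1.65 ± 0.21, adjusted p = 0.000773). The other *tbx6* feature read 8.48, 8.55 and 8.58 in controls and 5.54, 5.41 and 5.55 in double morphants, a difference of -3.04 (adjusted p = 1.79e-08). *foxc1a*, a forkhead gene needed for somite formation, had a single feature at 9.32, 8.88 and 8.98 in controls and 6.98, 7.32 and 7.21 in double morphants, and fell by 1.89 (adjusted p = 0.00146).

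Of the clock and Notch ligand genes on this list, *her1*, *her7*, *her15.1* and *dldh* fell. *her1* and *her7* encode Hairy-related repressors whose levels oscillate in the presomitic mesoderm. *her7* read 8.04, 7.92 and 7.69 in controls and 5.87, 6.20 and 5.95 in double morphants. These values do not overlap and amount to a 3.67-fold fall (log2 fold change -1.88 ± 0.18, adjusted p = 4.62e-05). *her1* read 7.84, 9.71 and 9.47 in controls and 6.78, 6.92 and 7.15 in double morphants. Here control sample 1 lay close to the double morphants and the other controls far above, so that the spread was wider (log2 fold change -2.06 ± 0.39, adjusted p = 0.0229) and the adjusted p was 0.12 with the 90% epiboly arrays fitted alone. The other *her1* feature passed at -2.25 (adjusted p = 0.000243). *her15.1*, a Notch-responsive member of the same family, fell by 1.43 and 1.51 on its features (adjusted p = 0.0346 and 0.0471). The gene of the Notch ligand deltaD (*dld* on the array, listed as *dldh* by RefSeq and matched by its transcript) read 8.24, 8.22 and 8.13 in controls and 6.08, 6.16 and 6.45 in double morphants. All 3 of its features passed between -1.96 and -1.32. *pcdh8*, the paraxial protocadherin that acts in cell movement and segment formation, had 1 feature, which read 8.74, 9.36 and 9.97 in controls and 6.17, 6.26 and 6.12 in double morphants. It fell 9.04-fold (log2 fold change -3.18 ± 0.30, adjusted p = 4.38e-05) and the groups were far apart.

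Of the 11 members that did not pass, 8 had negative differences. Among these were *hes6* (log2 fold change -1.27, adjusted p = 0.0798), *dlc*, the deltaC ligand gene (log2 fold change -0.91, adjusted p = 0.0567), and *fgf17* (log2 fold change -0.98, adjusted p = 0.133). *ripply1* (log2 fold change -0.67, adjusted p = 0.773) and *mespba* (log2 fold change -0.46, adjusted p = 0.658) were others. The other feature of *hes6* passed at -1.48 (adjusted p = 0.000437). For *ripply2*, whose product ends the activity of Tbx6 at segment borders, the standing feature differed by -0.20, yet 2 of its 4 features passed at -1.02 and -1.29 (adjusted p = 0.00402 and 0.00114). *her11* differed by 0.07. The count of 10 lay between 8 and 11 when single arrays were left out, *her1* and *her15.1* being the members whose call then ended. That of *her1* ended without control sample 2 or 3 or any double morphant sample of 90% epiboly, and that of *her15.1* without any of these 6 arrays or 4 shield arrays (adjusted p up to 0.135 and 0.183). It was 4 by the t-test that the study names, applied to the 6 arrays and adjusted over all features.

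**Figure D3:**
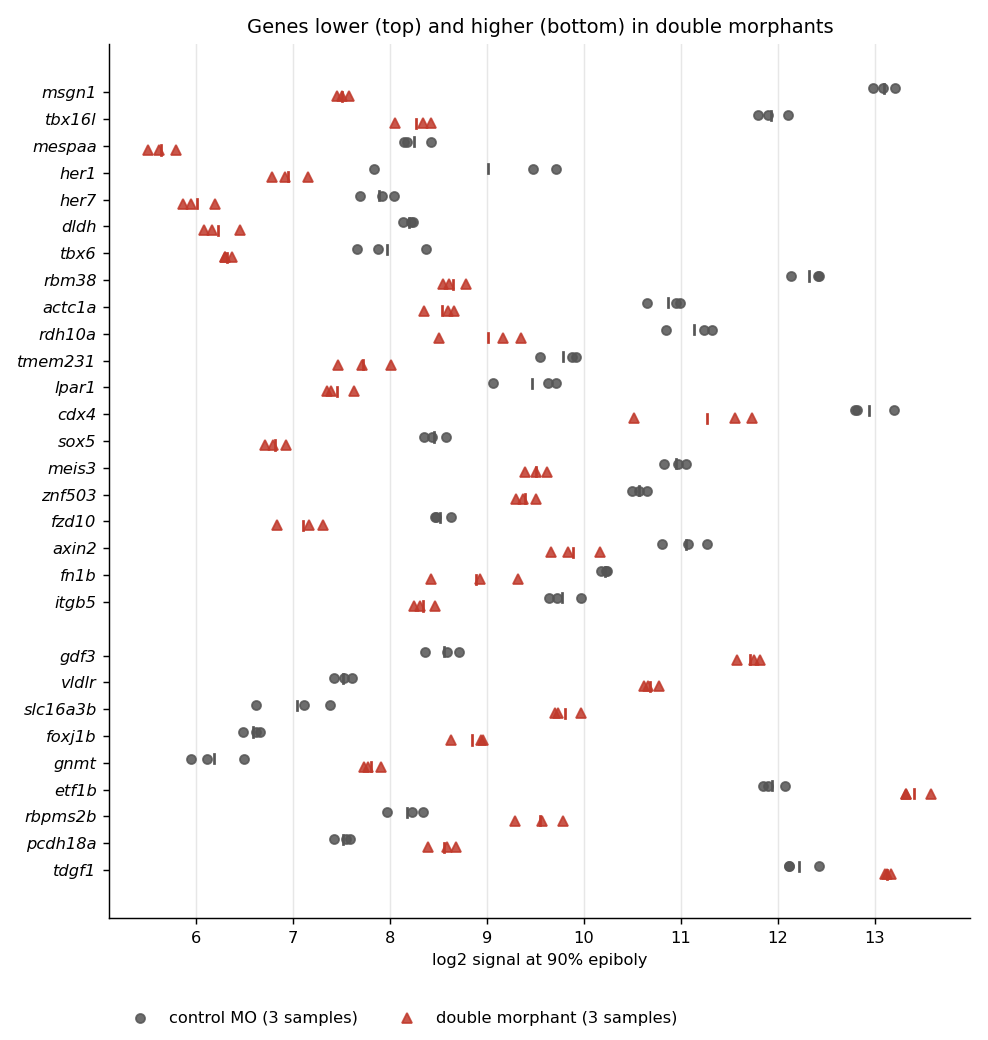
Log2 signal at 90% epiboly (horizontal axis) of 29 named genes in the 3 control MO samples (grey circles) and the 3 double morphant samples (red triangles), with short lines at the group means. In each of these genes the 3 samples of a group lie apart from the 3 of the other, which follows largely from their being picked for passing. Of them *msgn1* has the widest gap, from 7.58 to 12.98.

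Muscle genes gave a mixed picture, since the standing feature of none of the 17 measured members passed. *myf5*, the myogenic regulator that appears first in the paraxial mesoderm, read 8.79, 8.68 and 8.98 in controls and 7.54, 7.43 and 8.05 in double morphants on that feature. The groups lay apart at a difference of -1.15 (adjusted p = 0.233), and 2 of the other 3 features passed at -2.11 and -1.33 (adjusted p = 6.21e-05 and 0.0496). The remaining feature was at -1.34. *myod1*, the regulator of the adaxial muscle precursors, differed by -0.44 with overlapping groups, and *myf6* and *myog* by -0.73 and -0.24 (adjusted p = 0.546 and 1). Outside this list *actc1a*, a striated muscle actin gene, was among the 15 genes that fell most. It read 10.95, 10.65 and 10.99 in controls and 8.66, 8.60 and 8.35 in double morphants. All double morphant values were lower by almost 2 units or more, and all 4 features passed between -3.88 and -2.33.

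Among genes of the posterior body and of Wnt signaling, which maintains the tailbud progenitors, a Wnt ligand gene, a receptor gene, a target gene and *cdx4* were lower. *wnt8a*, the Wnt ligand of the margin, had 1 feature, which read 10.75, 10.61 and 10.83 in controls and 8.50, 8.76 and 9.12 in double morphants. It fell 3.84-fold (log2 fold change -1.94 ± 0.26, adjusted p = 0.00156) without overlap. *cdx4*, a caudal homeobox gene that patterns the posterior body, read 12.81, 12.79 and 13.20 in controls and 10.52, 11.56 and 11.73 in double morphants. Double morphant sample 1 was the lowest, and both features passed at -1.66 and -1.40, although with the 90% epiboly arrays fitted alone the adjusted p of the standing feature was 0.0672. The receptor gene *fzd10* read 8.46, 8.47 and 8.63 in controls and 6.84, 7.17 and 7.31 in double morphants. Its 3 features differed by -1.41 to -1.40 and all passed. *axin2*, a feedback inhibitor used as a readout of Wnt activity, read 10.80, 11.07 and 11.27 in controls and 9.83, 9.66 and 10.16 in double morphants. It fell by 1.16 (log2 fold change -1.16 ± 0.21, adjusted p = 0.018) on 1 of 3 features, the others being at -1.33 and -0.19 (adjusted p = 0.105 and 1). These were 3 of 27 Wnt genes (11.1%) and 2 of 15 posterior genes (13.3%), beside 0.573% of all genes, with list medians of -0.10 and -0.59. Of the Wnt genes 16 had negative and 11 positive differences, and of the posterior genes 11 and 4. The Wnt genes *notum1a*, *tcf7l1a* and *vangl2* were at 0.79, 0.56 and 0.50 without passing. Members that did not pass included *wnt3a* (log2 fold change -0.70, adjusted p = 0.69), *wnt5b* (log2 fold change -0.88, adjusted p = 0.485), *eve1* (log2 fold change -0.68, adjusted p = 0.736) and *fgf8a* (log2 fold change -0.59, adjusted p = 0.869), while *wnt11f2* and *fgf4* differed by -0.10 and 0.03. Leaving out control sample 2 or 3 or double morphant sample 1 or 2 ended the calls of *cdx4* and *axin2*, as did control sample 1 for *cdx4* (adjusted p up to 0.145 and 0.122), whereas *wnt8a* and *fzd10* passed without any single array. None of 45 Hox genes passed, with a median of -0.06. They ranged from *hoxb5b* at -1.08 to *hoxa11a* at 1.90, where double morphant sample 1 read 5.46 and the other double morphants 7.71 and 8.66. Some members read near the lowest signals, such as *hoxa13a* at a control mean of 5.65. Negative differences were found in 28 and positive in 17. *hoxb1a*, *hoxb3a*, *hoxb4a*, *hoxb6b* and *hoxb7a* were at -0.91, -0.87, -0.89, -0.83 and -1.01, and *hoxb2a*, *hoxb8a* and *hoxb9a* at 0.04, 0.28 and -0.29.

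In the retinoic acid pathway, *rdh10a*, which oxidises retinol in the first step of retinoic acid synthesis, read 11.32, 11.24 and 10.84 in controls and 9.16, 9.35 and 8.51 in double morphants. No values overlapped, and the gene fell 4.37-fold (log2 fold change -2.13 ± 0.27, adjusted p = 0.000695) with its other feature at -1.92. It was the only one of 18 measured members to pass (5.56%, beside 0.573% of all genes). *aldh1a2*, the enzyme of the next step, had discordant features: the brighter differed by -0.44 (adjusted p = 0.593), while the other read 10.09, 9.86 and 10.41 in controls and 7.32, 7.44 and 7.71 in double morphants, a difference of -2.63 (adjusted p = 1.88e-05). *cyp26a1*, whose product degrades retinoic acid, and *rdh10b* differed by -0.07 and -0.02, with overlapping groups. In the Notch pathway, 2 of 23 members (8.7%) were lower, beside 0.573% of all genes: *dldh* and the receptor gene *notch2* (log2 fold change -0.99, adjusted p = 0.0194, 2 of 3 features passing). The call of *notch2* ended without control sample 1 or 2 or double morphant sample 2 or 3 (adjusted p up to 0.131). The receptor genes *notch1a*, *notch1b* and *notch3* differed by 0.19, 0.02 and 0.07, and *lfng*, a modifier of Notch receptors, by 1.00 (adjusted p = 0.188).

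Genes of the extracellular matrix and of its attachment to cells were lower in a few cases. *fn1b*, one of the fibronectin genes of the somite borders, read 10.24, 10.23 and 10.18 in controls and 8.93, 8.42 and 9.32 in double morphants. Double morphant sample 3 was closest to the controls and still lay below them, and all 4 features passed between -2.33 and -1.32. *p4ha1b* and *p4ha2*, which encode prolyl 4-hydroxylase subunits for collagen, passed at -1.33 and -0.74 (adjusted p = 0.0346 and 0.0443). These were 3 of 24 members (12.5%), beside 0.573% of all genes, and the list median was -0.32. The calls of *p4ha1b* and *p4ha2* on the standing feature ended without any 1 of the 6 arrays of 90% epiboly, and that of *fn1b* without any 1 of them but double morphant sample 3, with adjusted p up to 0.184, 0.249 and 0.142. For the paralog *fn1a* the standing feature differed by -0.61 (adjusted p = 0.754) and the other passed at -1.10 (adjusted p = 0.0079). The laminin genes *lama1*, *lama5* and *lamb1a* differed by -0.16, -0.16 and -0.28. *efemp2b* (fibulin 4, *fbln4* on the array), whose product assembles elastic fibres, passed on all 4 features between -1.63 and -1.12, and the integrin gene *itgb5* read 9.97, 9.64 and 9.72 in controls and 8.25, 8.31 and 8.46 in double morphants. The *itgb5* groups lay apart by over 1 unit (log2 fold change -1.44 ± 0.17, adjusted p = 0.000305). Of its 4 features 2 passed, the others being at -0.54 and -0.62. Of 17 cadherins, protocadherins and integrins on the list, *pcdh8* was lower and *pcdh18a* higher (5.88% each, beside 0.573% and 0.218% of all genes). *cdh2* (N-cadherin) differed by -0.64 (adjusted p = 0.435). In the Snail and Twist family none of 7 members passed, *snai1a* and *snai1b* differing by -0.43 and -0.62 and *twist2* by -1.10.

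Several further genes that fell are on none of the lists, except for *rbm38*, and those outside the 15 that fell most were chosen after their values were seen. *rbm38*, an RNA-binding protein gene that stood on the list of p53 response genes, read 12.42, 12.13 and 12.41 in controls and 8.55, 8.78 and 8.61 in double morphants. It fell 12.7-fold (log2 fold change -3.67 ± 0.21, adjusted p = 1.98e-07), and its other feature passed at -1.92. No other of the 14 measured p53 response genes passed (7.14% lower, beside 0.573% of all genes), *mdm2* being at 0.48 and *ccng1* at 0.14. *tmem231*, a gene of the ciliary transition zone, and *wu:fb55f04*, which has no annotated role in the files, passed at -2.06 and -2.54. The control values of *wu:fb55f04* were spread widely, at 9.07, 10.74 and 10.64. *lpar1*, a receptor gene for lysophosphatidic acid, and *ebna1bp2*, a gene of ribosome biogenesis, fell by 2.01 and 2.04 on the standing feature, and both features of each passed. *zgc:152968* passed on 3 of 3 features, between -3.18 and -2.02.

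Some of these genes encode transcription factors. *sox5*, a SoxD gene, read 8.43, 8.35 and 8.58 in controls and 6.93, 6.71 and 6.79 in double morphants. The TALE homeobox gene *meis3* read 10.97, 10.82 and 11.05 in controls and 9.62, 9.39 and 9.51 in double morphants. In both genes every double morphant value lay at least 1 unit below every control value, with differences of -1.64 ± 0.26 and -1.44 ± 0.21 (standard error). *meis1b* fell by 1.70 (adjusted p = 0.0201), on 1 of 3 features. The zinc finger genes *znf703* and *znf503*, of 1 family, passed on 3 of 3 features each, at -1.38 to -1.13 and at -1.32 to -1.13. *znf503* read 10.49, 10.65 and 10.57 in controls and 9.50, 9.30 and 9.37 in double morphants, with the samples of each group close together and well apart from the other group. Of genes with a single feature, *pnhd* (pinhead, a secreted protein of the margin), *tob1a* and the homeobox gene *lbx2* fell by 1.48, 1.41 and 1.40 (adjusted p = 0.00433, 0.000688 and 0.00225). *gas1a*, which encodes a Hedgehog-binding surface protein, fell by 0.93 on 1 of 3 features, the others being at -0.72 and -0.25 without passing. *pbk*, a kinase gene of dividing cells, fell by 1.12, and 2 of 2 features passed.

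Higher genes were fewer, and components of Nodal signaling were among them. Nodal ligands act with Gdf3 (Vg1) through Activin receptors and the co-receptor Tdgf1 (One-eyed pinhead) to specify mesendoderm. *gdf3* (*dvr1* on the array) read 8.59, 8.71 and 8.36 in controls and 11.81, 11.58 and 11.75 in double morphants. All double morphant values lay almost 3 units or more above the controls, a rise of 8.94-fold (log2 fold change 3.16 ± 0.30, adjusted p = 4.38e-05), and its other feature rose by 1.80. *tdgf1* (*oep* on the array) read 12.42, 12.11 and 12.11 in controls and 13.16, 13.10 and 13.12 in double morphants. The rise was small but the groups lay apart (log2 fold change 0.92 ± 0.18, adjusted p = 0.0272), with the other features at 0.74 and 0.61 (adjusted p = 0.17 and 0.656). The receptor gene *acvr1ba* had 1 feature, which read 8.94, 8.94 and 9.03 in controls and 9.93, 9.82 and 9.83 in double morphants and was higher by 0.89 (adjusted p = 0.0107). These were 3 of 15 pathway genes (20%), beside 0.218% of all genes, and 12 of the 15 had positive differences, with a median of 0.36. The Nodal ligand genes themselves did not pass, with *ndr1* at 0.36 and *ndr2* at -0.44 (adjusted p = 1 and 0.463). Nor did the target genes *lft1* (log2 fold change -1.01, adjusted p = 0.257) and *mixl1* (log2 fold change 0.87, adjusted p = 0.323), or the cofactor gene *foxh1* (log2 fold change 0.68, adjusted p = 0.207). The calls of *tdgf1* and *acvr1ba* ended without control sample 2 or any 1 double morphant sample, and that of *tdgf1* also without control sample 3 (adjusted p up to 0.162 and 0.0705).

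The rise of *vldlr*, a receptor gene for lipoproteins and reelin, was of the same size as that of *gdf3*. It read 7.61, 7.53 and 7.42 in controls and 10.77, 10.66 and 10.62 in double morphants. The groups lay 3 units apart, and all 4 features passed between 2.63 and 3.29. *slc16a3b*, a transporter gene for lactate and other monocarboxylates, read 6.62, 7.38 and 7.11 in controls and 9.97, 9.70 and 9.73 in double morphants. It rose 6.81-fold, and 3 of 4 features passed. *foxj1b*, a forkhead gene for motile cilia, read 6.62, 6.66 and 6.48 in controls and 8.63, 8.94 and 8.96 in double morphants. It passed on all 3 features, at 1.46 to 2.26, whereas its paralog *foxj1a*, expressed in the forerunner cells of the left-right organ, differed by -0.36 with overlapping groups. No other member of the list of cilia and left-right genes (11 measured) passed, a share of 9.09% higher beside 0.218% of all genes. *etf1b*, a translation termination factor gene, passed on both features at 1.47 and 1.53. The other 7 genes passed on 1 feature of 2: the RNA-binding protein genes *caprin2* (1.70) and *rbpms2b* (1.37), *gnmt*, a methyltransferase gene (1.62), *arhgef3l* (1.13), *pcdh18a*, a protocadherin gene (1.03), *grk7b* (0.92) and *micos10*, a gene of the mitochondrial inner membrane (0.86). For *gnmt*, *grk7b* and *pcdh18a* the feature that did not pass was at 0.28, 0.26 and 0.45. Except for *gnmt*, the calls of these 7 genes ended without double morphant sample 2 and without at least 2 other single arrays, with adjusted p up to 0.238.

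The targeted genes were measured too. *tbxta* had 1 feature, which read 9.44, 9.15 and 9.14 in controls and 10.80, 11.27 and 11.08 in double morphants and was higher by 1.81 (adjusted p = 0.000248). *tbx16* read 9.12, 9.17 and 9.73 in controls and 9.49, 9.64 and 9.99 in double morphants with overlapping groups, and its 3 features differed by 0.24 to 0.56 without passing. A MO acting on translation does not remove the RNA, and these levels therefore do not check the labels. Together with *tbx16l* and *tbx6*, 2 of the 16 measured T-box genes were lower (12.5%, beside 0.573% of all genes) and 1 higher (6.25%, beside 0.218%). *eomesa* differed by 0.59 and *tbx1* by 0.02. In *eomesb* control sample 1 read 7.23 and the other controls 11.72 and 12.27.

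Many gene groups of the embryo had no passing member. Since 0.573% of all genes passed as lower and 0.218% as higher, lists of this size would mostly hold none. These counts are therefore no result about the tissues. Of 12 endoderm genes none passed and 6 had negative differences, with *sox32* and *sox17* at -0.11 and -0.52. Apart from *tbxta*, none of the 20 genes of notochord and floor plate passed. *noto* (log2 fold change -0.42, adjusted p = 0.805), *shha* (log2 fold change -0.91, adjusted p = 0.158) and *foxa2* (-0.37) were among those that did not. The same held for 14 organizer and dorsal genes, among them *chrd* (log2 fold change -0.70, adjusted p = 0.125) and *nog3* (log2 fold change -0.72, adjusted p = 0.108), and for 21 Fgf pathway genes, of which *spry2*, *etv4* and *fgf17* differed by -0.68, -0.58 and -0.98. None of 35 neural genes passed, *sox2* and *sox3* being at 0.45 and 0.32, none of 15 genes of the ectoderm border and epidermis, and none of 11 chemokine genes. Of the latter, *cxcl12a* and *cxcl12b*, ligand genes for Cxcr4, differed by -0.79 and -1.11 (adjusted p = 0.0522 and 0.193) on the standing feature. The paper reports both genes as downregulated in these arrays. The *cxcl12b* feature read 10.9, 10.77 and 10.71 in controls and 9.78, 9.61 and 9.66 in double morphants, without overlap. Its p-value rests on a spread estimated from the shield arrays as well. All 4 features of each gene were negative, and 1 other *cxcl12a* feature passed at -1.10 (adjusted p = 0.0363). At shield all 4 *cxcl12b* features passed, at -2.12 to -1.31 (adjusted p = 0.00352 to 0.0438), and no *cxcl12a* feature did. Of 20 genes of lateral and intermediate mesoderm, blood and vessels, only *cdx4* passed (5%, beside 0.573% of all genes). *osr1* was at -0.95, *lmo2* at 0.72 and *tal1* at -0.02. The only passing member of 21 Bmp and ventral genes, *szl* (-3.65), and the only one of 23 ephrin and guidance genes, *efnb2b* (-4.90), lay in opposing pairs. The other *efnb2b* feature differed by -0.90 (adjusted p = 0.323), and *bmp2b*, *bmp4* and *vox* by -0.31, 0.38 and -0.35.

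**Figure D4:**
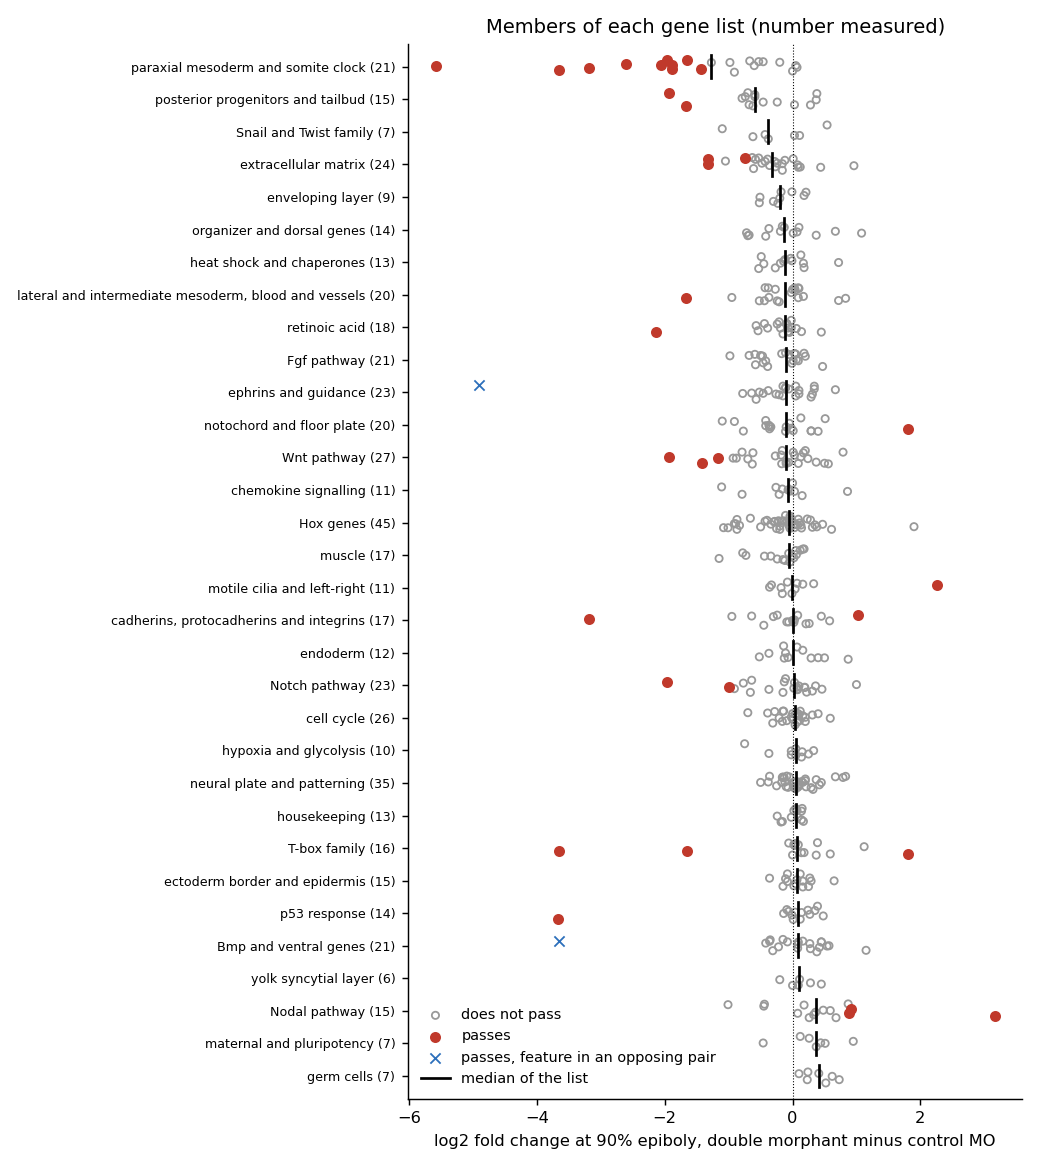
Log2 fold change at 90% epiboly (horizontal axis) of every measured member of 32 gene lists (number measured in brackets), sorted by median (black line). Filled red circles passed, open circles did not, and blue crosses passed on a feature in an opposing pair. The paraxial mesoderm list has the lowest median, -1.27, and the germ cell list the highest, 0.41.

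Markers of tissues outside the mesoderm were taken as a measure of sample makeup. None of 9 genes of the enveloping layer, the outer covering of the gastrula, passed. Their mean signal was 14.30 to 14.46 in controls and 14.06 to 14.24 in double morphants, and the median difference was -0.20. These ranges did not overlap, but nor did those of many other lists, such as the Fgf pathway (9.89 to 9.93 and 9.67 to 9.74). The standing features of *krt18a.1* and *krt8* both read 15.59 in control sample 3, the highest value of that array, where differences may be understated. Other features differed by -0.80 to -0.07 for *krt18a.1* (lowest adjusted p = 0.0534) and by 0.15 and 0.37 for *krt8*. For 6 genes of the yolk syncytial layer the ranges were 10.27 to 10.45 and 10.41 to 10.55. All 7 germ cell genes had positive differences without passing, from 0.10 to 0.73, with ranges of 7.22 to 7.83 in controls and 7.66 to 8.51 in double morphants. Of 7 maternal and pluripotency genes none passed, *nanog* being at 0.95 and *pou5f3* at 0.51, and the median was 0.37. Their ranges, 10.34 to 10.71 in controls and 10.74 to 10.95 in double morphants, did not overlap either. No gene passed among 26 of the cell cycle, 13 of heat shock, 10 of hypoxia and glycolysis or 13 housekeeping genes, whose medians were 0.04, -0.12, 0.05 and 0.06. The housekeeping genes *actb2* and *eef1a1l1* read 15.59 in control sample 3 and 15.76 in double morphant sample 3, each the highest value of its array. The part of these markers in the other differences was not tested.

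The changes at 90% epiboly were set beside those at shield, measured in other samples. Both came from the same fit, which shares the estimate of spread of each feature between the stages. The overlap of calls is therefore not an independent comparison. Of the 46 lower genes with features of 1 direction outside opposing pairs, 13 also passed as lower at shield, where 0.264% of all genes were lower. Of the 13 higher genes 6 also passed as higher, beside 0.286% of all genes, and none of either kind passed in the other direction. Those lower at both stages were *msgn1*, *tbx16l*, *mespaa*, *her1*, *her7*, *dldh*, *rbm38*, *tmem231*, *ebna1bp2*, *zgc:152968*, *itgb5*, *pbk* and *p4ha2*, and *gdf3*, *vldlr*, *slc16a3b*, *foxj1b*, *etf1b* and *micos10* were higher at both. The sign was the same at both stages in 41 of the 46 and in all 13, a share that was not counted over all genes. The difference between the stages was tested for all features, and 130 (0.287%) passed, of which 82 lay in an opposing pair at one stage or the other. Of named genes with features of 1 direction and no opposing pair, 4 fell further at 90% epiboly than at shield. *actc1a* was at -0.26 at shield and -2.33 at 90% epiboly (difference -2.07 ± 0.26, adjusted p = 0.0013). Its other features were at -1.04, -0.76 and -0.13 at shield without passing there, and the stage difference of each passed too. *rdh10a* was at -0.06 and -2.13 (difference -2.07 ± 0.38, adjusted p = 0.0345) and *rbm38* at -1.21 and -3.67 (difference -2.46 ± 0.30, adjusted p = 0.000774). For *msgn1* the values were -4.40 and -5.58 (difference -1.18 ± 0.22, adjusted p = 0.0359). For some genes only features other than the standing one passed this test. The *tbx6* feature other than the standing one was at -0.28 and -3.04 (difference -2.76, adjusted p = 3.01e-06), a *sox5* feature at 0.24 and -1.43 (difference -1.67, adjusted p = 0.00396) and 2 of the 4 *fn1b* features at -0.37 and -2.33 and at -0.33 and -1.64 (differences -1.96 and -1.31, adjusted p = 0.0118 and 0.018). *tob1a*, with 1 feature, was at 0.21 and -1.41 (difference -1.62 ± 0.25, adjusted p = 0.00799).

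Mean levels at each stage are set side by side here, and since the 90% epiboly controls enter both the comparison of stages and that of injections, no test was made of their relation. In controls *actc1a* stood at a mean of 8.98 at shield and 10.86 at 90% epiboly, against 8.72 and 8.54 in double morphants. *tbx6*, on its standing feature, stood at 6.54 and 7.97 in controls against 6.41 and 6.32, and *meis3* at 8.79 and 10.95 against 8.87 and 9.51. Genes that were higher are given in the same way. *gdf3* stood at 11.05 and 8.55 in controls against 12.85 and 11.71 in double morphants, and *vldlr* at 9.36 and 7.52 against 11.84 and 10.68. *slc16a3b* was at 9.78 and 7.04 against 11.59 and 9.80, and *caprin2* at 10.53 and 8.23 against 11.38 and 9.93. *foxj1b* stood at 6.50 and 6.59 in controls against 8.46 and 8.85, and *pcdh18a* at 6.29 and 7.52 against 6.47 and 8.55.

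**Figure D5:**
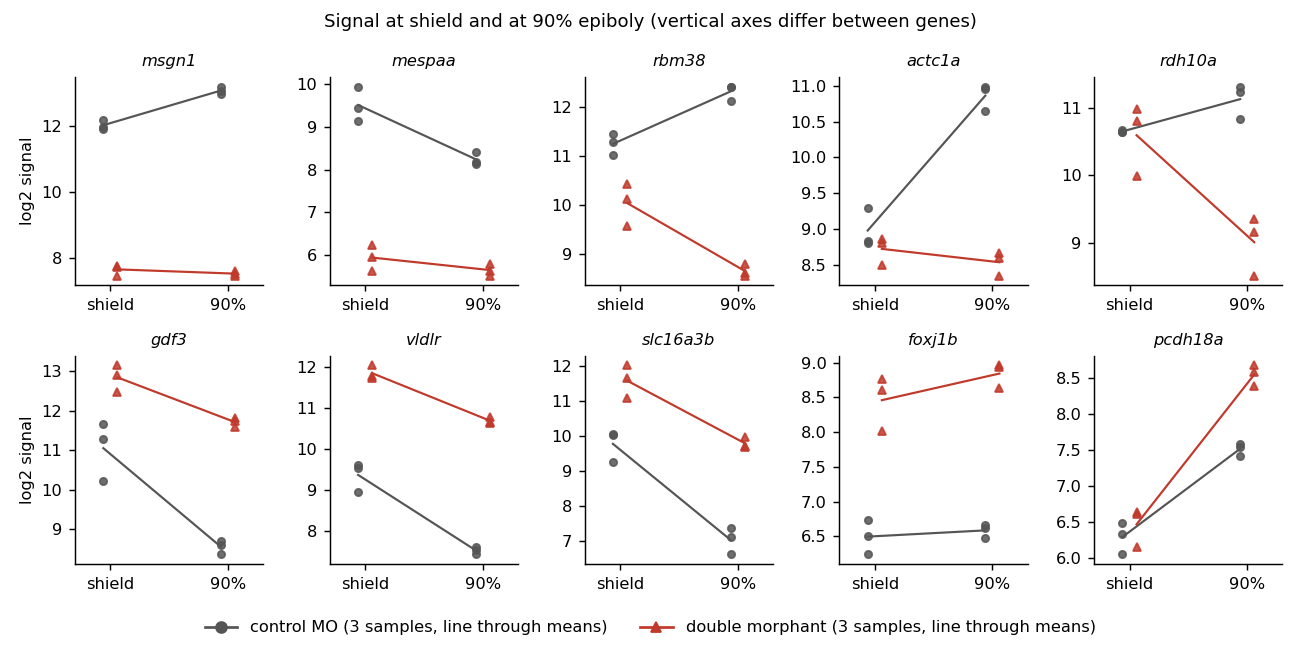
Log2 signal (vertical axes, which differ between genes) of 10 named genes at shield and 90% epiboly in control MO (grey) and double morphant (red) samples, 3 each, with lines through the means. On their standing features *actc1a* and *rdh10a* differ by -0.26 and -0.06 at shield and by -2.33 and -2.13 at 90% epiboly. *gdf3*, *vldlr*, *slc16a3b* and *foxj1b* are higher in double morphants at both stages.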

How the data were processed

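The authors hybridised fluorescently labelled cDNA from total RNA to single-dye Agilent zebrafish V3 arrays, 1 per sample. The deposited values are on the log2 scale and were normalized between arrays by the authors (array medians 7.06 to 7.07). How they did so, and with which software and background correction, is not given in the sources used here. That table has no background flags, and a low signal cannot be told apart from none. Features were named through the platform annotation, updated by accession or symbol to current zebrafish gene symbols, which gave 26855 features 1 symbol and left 18365 unnamed.

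Differences were fitted with limma 3.58.1 in R 4.3.3 to 4 groups (shield and 90% epiboly, control MO and double morphant, 3 samples each), with empirical Bayes variances and Benjamini-Hochberg adjustment over 45220 features. The difference between stages was the interaction term of the same fit. Group membership came from the sample titles. A gene was called by its feature with the highest mean over the 12 arrays. The fit was tested on simulated data with 50 features changed at each of 4 sizes, in which 8 unchanged features passed. No pair of arrays was identical, and the number of arrays limits the precision. Within groups at 90% epiboly arrays correlated at 0.9753 to 0.9897, and between groups at 0.9706 to 0.9836. Figures were drawn with matplotlib 3.10.9.

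Named were the targeted genes, the 15 lowest and up to 15 highest passing genes with 2 or more features of 1 sign and no overlap between groups, passing members of the gene lists with up to 4 further members in list order, and up to 10 genes with a stage difference. Every other gene given in the text was chosen after their values were seen. Gene lists and rules were written with earlier results of these data known. The alternatives were the arrays of 90% epiboly alone, a replicate block, quantile, cyclic loess and median scaling, removal of features under 6.56 (the 40th percentile of feature means), trended robust variances, array weights, the t-test named by the study, averaged features, each array left out and, chosen after seeing the data, removal of opposing pairs. Sequences and genome positions were not used here.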

Additional observations from a re-analysis of the deposited data

Results flagged for a closer look

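The effect of the double knockdown differed between shield and 90% epiboly for several named genes, by limma's interaction term adjusted over all features. Outside opposing pairs these were *tgfbr2b*, given below, and 5 others, on the feature that stands for the gene. The difference (90% epiboly minus shield, log2) was -2.46 for *rbm38*, -2.07 for *actc1a*, -2.07 for *rdh10a*, -1.62 for *tob1a* and -1.18 for *msgn1*. It was -2.76 for the *tbx6* feature other than the standing one, -1.67 for a *sox5* feature, and -1.96 and -1.31 for a pair of *fn1b* features.

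For genes whose feature lay in an opposing pair at 90% epiboly, the difference was 5.34 for *wnt9b*, 5.28 for *si:ch211-285f17.1*, 3.74 for *gpr34b*, -4.11 for *zgc:173721*, -3.83 for *szl*, -3.47 for *pknox1.1*, -3.35 for *efnb2b*, -2.82 for *dnajc3b* and -1.73 for *ddx11*. For *tgfbr2b* it was 7.93, on 1 feature that differed by -8.01 at shield and -0.08 at 90% epiboly. This feature lay in no opposing pair at either stage. The cause of these differences was not tested.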

How the results depend on the processing

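Scaling (quantile, cyclic loess, median), removal of dim features, trended variances and the arrays of 90% epiboly alone kept each count over all features or genes within 1.5 times its value. Of the 65 named calls, however, 8 ended with the arrays of 90% epiboly alone and 3 with trended variances. With array weights, 661 features were lower and 468 higher, and 149 and 89 genes with features of 1 sign, the weights running from 0.458 to 3.94. By the t-test the study names these were 51, 42, 13 and 4, and 17 of 65 named calls held. Averaging the features of a gene gave 93 and 25 genes (no count of features or of stage differences), and turned *pabpc1a* to -1.55 and *lypla2* to -1.73. Without opposing pairs, 45 features were higher (162 lower) and 61 differed between stages, while *si:ch211-285f17.1* stood at -0.10, *gpr34b* at -0.21 and *rab8a* at 0.32. The calls of *efnb2b*, *zgc:173721*, *pknox1.1*, *pdcd4b*, *dnajc3b*, *ddx11*, *caprin2*, *micos10* and *p4ha2* also ended there.

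Whether samples with the same replicate number share a clutch or batch is not stated. Their deviations correlated at 0.20, 0.08 and 0.41, each above the -0.27 to 0.03 of other numbers. What they share was not tested. The main fit did not take the numbers as pairs because the methods state no block. With the replicate number as a block, 315 features were lower and 151 higher, and 70 and 28 genes with features of 1 sign, and all 65 named calls held.

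Leaving out single arrays gave 145 to 247 features lower, 72 to 98 higher, 31 to 55 and 9 to 16 genes with features of 1 sign, and 104 to 167 stage differences. The lower counts fell by over 1.5 times without control MO sample 2 (149 features, 35 genes) and double morphant sample 2 (145, 31) of 90% epiboly, and the gene count also without control MO sample 3 (34) and double morphant sample 1 (35). Of the 65 named calls, 44 held without any single array. Of the rest, 12, 17 and 17 ended without control MO samples 1, 2 and 3 and 17, 21 and 15 without double morphant samples 1, 2 and 3 of 90% epiboly, and up to 5 without a shield array. These genes, with adjusted p up to 0.249, were *her1*, *her15.1*, *cdx4*, *axin2*, *notch2*, *fn1b*, *p4ha1b*, *p4ha2*, *efemp2b*, *meis1b*, *gas1a*, *wu:fb55f04*, *rab8a*, *tdgf1*, *acvr1ba*, *caprin2*, *rbpms2b*, *arhgef3l*, *pcdh18a*, *grk7b* and *micos10*.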
